A study of Mus musculus with 7 samples.

Results

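The 8 genes described here belong to the synthesis of cholesterol and to its control by sterols. They were chosen by name, with earlier results of these data known. They comprise Srebf2, Hmgcs1, Sqle, Idi1, Fdft1, Lss, Cyp51 and Insig1, which are 8 of the 24341 genes in the deposited table. All 8 passed the filter on low values (a sum of at least 10 FPKM over the 7 samples), as did 10541 genes in all. FPKM, fragments counted relative to transcript length and library size, is scaled to length, so levels can be set side by side between genes.

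RNA was sequenced from BP-1+ B-cell precursors (BCP) from the spleen of Eμ-Ret mice. These mice are hemizygous for a Ret fusion transgene under the IgH enhancer on a BALB/c background, and both groups carry it, so no sample here is free of the transgene. Young, healthy mice gave the 4 preleukemic samples, while the 3 leukemic samples came from older mice that were moribund with overt disease, so age and disease cannot be told apart. The paper describes sorting for preleukemic cells, while leukemic spleen cells for its in vitro work were in most cases not enriched. Its RNA sequencing methods do not say whether the leukemic samples were sorted, so handling may differ between the groups. The labels give no treatment, and exact ages and the sex of each mouse are not given in the sources used here. The p-values below measure the spread between these samples. Enpep, the gene of BP-1, was present in all 7 samples, at 134 to 210.2 FPKM in preleukemic and 19.1 to 102 FPKM in leukemic samples.

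Cholesterol is built from acetyl-CoA through mevalonate, farnesyl diphosphate, squalene and lanosterol. When sterols in the endoplasmic reticulum are low, SCAP escorts the precursor of SREBP2, the protein of Srebf2, to the Golgi, where site-1 and site-2 proteases release a transcription factor that switches on most enzymes of the pathway. INSIG proteins hold SCAP back when sterols are plentiful, and Insig1 is itself switched on by SREBP. Dividing B-cell precursors need sterols for new membrane and isoprenoid groups to anchor small GTPases.

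SREBP2 binds the sterol regulatory element, commonly next to sites for NF-Y (CCAAT box) and SP1 (GC box). RefSeq promoter windows (GRCm38.p6, 250 bases before to 50 after the start) were at hand for 6 of the 8 members: Cyp51, Insig1, Lss, Idi1, Hmgcs1 and Srebf2. Sqle and Fdft1 had no window. Shown are the 250 bases before the start of Hmgcs1, Srebf2 and Insig1. Hmgcs1 was called higher in leukemic samples, and its window alone of the 6 held the letters TCACNCCAC, the 1 form of the sterol regulatory element searched. Srebf2 and Insig1 control the pathway and were not called. Sequences run 5′ to 3′ on the strand of the gene (+ for all 3), and capitals mark matches on either strand to the sterol regulatory element (TCACNCCAC), the CCAAT box, the GC box (GGGCGG) or an E-box (CACGTG).
Hmgcs1, chr13:119690101-119690350: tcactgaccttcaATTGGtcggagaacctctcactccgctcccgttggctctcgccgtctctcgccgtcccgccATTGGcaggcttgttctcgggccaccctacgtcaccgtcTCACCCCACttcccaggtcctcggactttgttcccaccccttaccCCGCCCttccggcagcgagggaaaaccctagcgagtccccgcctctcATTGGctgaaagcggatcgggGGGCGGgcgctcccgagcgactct
Srebf2, chr15:82147019-82147268: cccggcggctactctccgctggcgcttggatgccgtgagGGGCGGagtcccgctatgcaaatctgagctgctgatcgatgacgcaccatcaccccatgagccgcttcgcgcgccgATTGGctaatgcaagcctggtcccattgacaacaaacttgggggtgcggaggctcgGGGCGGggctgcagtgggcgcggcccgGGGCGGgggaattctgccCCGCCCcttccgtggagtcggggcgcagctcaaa
Insig1, chr5:28071162-28071411: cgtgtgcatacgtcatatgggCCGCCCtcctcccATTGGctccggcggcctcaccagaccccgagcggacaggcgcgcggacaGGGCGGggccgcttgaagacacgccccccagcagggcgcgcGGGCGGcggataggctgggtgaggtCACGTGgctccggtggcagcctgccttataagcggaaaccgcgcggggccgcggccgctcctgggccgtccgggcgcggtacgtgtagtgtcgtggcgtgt

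The motif TCACNCCAC lay 137 to 129 bases before the start of Hmgcs1 and in no other member's window. It was found in 1.24% of all 32851 promoter windows of the same length. All 6 member windows held a CCAAT box, against 37.4% of all windows, and all 6 held a GC box, against 35.7%. The E-box CACGTG was found in Insig1, 101 to 96 bases before the start, and in 7.15% of all windows. These motifs shared no bases in the printed stretches. A match here is a string of letters that was not tested for binding, and no match says only that these letters are not in the window.

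The libraries held between 13.6 and 16.0 M fragments, read from the low values of the table, and those of the leukemic group were the deeper ones (15.2 to 16.0 M against 13.6 to 14.7 M). For members with 1 annotated transcript, this depth gives about 72.9 to 246 fragments per sample for Idi1, the lowest member, and 573 to 1203 for Cyp51. The counting error of Idi1 was thus up to 11.7%, below the spread between samples. These errors cover counting alone.

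Markers of other blood cells differed between the groups, and 1 preleukemic sample stood apart in the red cell markers. The summed FPKM of 10 red cell precursor genes was 613.6 to 1874 in leukemic samples and 11.9 to 14.8 in preleukemic replicates 2 to 4, while preleukemic replicate 1 had 232.8. All 10 of these genes were called higher in leukemic samples, against 8.47% of all genes tested. Of the macrophage markers, 5 of 8 tested were called higher (summed FPKM 39.2 to 205.8 against 10.0 to 17.95), and of the neutrophil markers 3 of 8 (1407 to 1744 against 148.1 to 860.1). The 10 B-cell precursor markers summed to 2581 to 3840 FPKM in leukemic and 5269 to 6508 FPKM in preleukemic samples. Of these, 4 were called lower and 0 higher, against 6.26% and 8.47% of all genes tested. No marker of these 4 lists was at the table's lowest value in any sample. In bulk RNA, more cells of a type and more RNA per cell cannot be told apart, and the part of these cells in the differences below was not tested.

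Mean levels of all 8 members were higher in leukemic than in preleukemic samples, but 2 were called, Sqle and Hmgcs1, both higher. They are 2 of 8 members, against 8.47% of the 10541 genes tested that were called higher in leukemic samples (limma adjusted p under 0.05, Benjamini-Hochberg). No member was called lower (limma; 0 of 8 also at an unadjusted p under 0.05), against 6.26% of all genes tested. These shares stand for 893 genes higher and 660 lower, which with quantile normalization became 754 and 907. The median log2 fold change of the members was 0.33, and that of all genes tested was -0.02. At an unadjusted p under 0.05, 3 of 8 members were higher, against 16.5% of all genes tested, and 17.5% of all genes were lower. The members were chosen with earlier results of these data known, so these comparisons are descriptions and no independent test.

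Sqle encodes squalene epoxidase, which oxidises squalene in the first step that needs molecular oxygen and is a point of flux control. It measured 36.4, 48.3 and 33.7 FPKM in leukemic replicates 1 to 3, and 28.1, 23.0, 21.7 and 22.0 FPKM in preleukemic replicates 1 to 4. The lowest leukemic value lay above the highest preleukemic value, and leukemic replicate 2 was the highest sample. Its log2 fold change was 0.70 (standard error 0.15, 95% interval 0.36 to 1.05, limma adjusted p = 0.0246), on the log2(FPKM + 1) scale. Sqle lies on chromosome 15 (59315092 to 59331193, mm10).

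Hmgcs1 encodes the cytosolic HMG-CoA synthase, which makes HMG-CoA on the way to mevalonate. Leukemic replicates 1 to 3 had 26.9, 34.1 and 27.0 FPKM, and preleukemic replicates 1 to 4 had 21.1, 23.0, 19.0 and 20.5 FPKM. As with Sqle, the groups did not overlap and leukemic replicate 2 was the highest. The log2 fold change was 0.46 (standard error 0.11, 95% interval 0.20 to 0.72, limma adjusted p = 0.0359). Its position is chromosome 13, 119690351 to 119708260. All 3 leukemic values lay above all 4 preleukemic values in 14.9% of genes tested, and Sqle and Hmgcs1 were the 2 members among them.

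**Figure D1:**
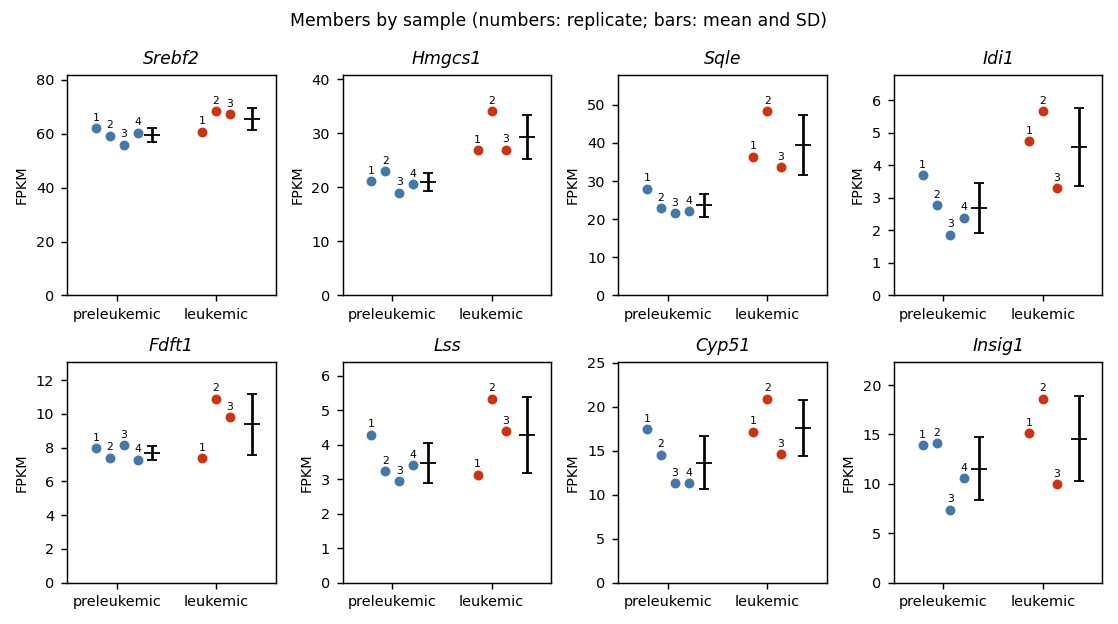
FPKM of each of the 8 members in the 4 preleukemic (blue) and 3 leukemic (red) samples, with replicate numbers at the points and the group mean and SD beside them, every axis starting at 0. The groups part without overlap in Sqle and Hmgcs1, and leukemic replicate 2 is the highest of the 7 samples in every member.

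Both calls depended on single samples. Without preleukemic replicate 1, the preleukemic sample with the red cell markers, Sqle stayed under the threshold (log2 fold change 0.79, limma adjusted p = 0.0294) and Hmgcs1 did not (0.47, 0.0748). Without leukemic replicate 2, which was highest in the red cell and macrophage markers, Sqle was again called (0.55, limma adjusted p = 0.0351) and Hmgcs1 was not (0.35, 0.0582). Without preleukemic replicates 2, 3 or 4 in turn neither gene was called. The log2 fold change was then 0.67 to 0.69 for Sqle and 0.42 to 0.51 for Hmgcs1. Genes called in all fell from 1553 to 443, 271 and 149 in these fits. The limma adjusted p over all alternatives ran from 0.0212 to 0.145 for Sqle and from 0.0334 to 0.145 for Hmgcs1. For both, 0.145 came from the fit with the replicate number as a block, in which 0 of all genes were called.

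Between these enzymes, Idi1 and Fdft1 work on the isoprenoid chain. Idi1 encodes isopentenyl diphosphate isomerase, and measured 4.75, 5.66 and 3.29 FPKM in leukemic replicates 1 to 3 and 3.69, 2.78, 1.87 and 2.39 in preleukemic replicates 1 to 4. The groups overlapped only through leukemic replicate 3 and preleukemic replicate 1. Its log2 fold change of 0.60 was the second largest of the members, but with a standard error of 0.22 it did not pass (95% interval 0.08 to 1.12, limma adjusted p = 0.109).

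Fdft1 encodes squalene synthase, which commits farnesyl diphosphate to sterols. It measured 7.40, 10.9 and 9.82 FPKM in leukemic replicates 1 to 3 and between 7.30 and 8.15 FPKM in the preleukemic samples. Leukemic replicate 1 lay inside the preleukemic range, and the remaining leukemic samples lay above it. The log2 fold change was 0.24 (95% interval -0.07 to 0.55, limma adjusted p = 0.237), and without leukemic replicate 1 it was 0.38 and called (limma adjusted p = 0.0474, range over the alternatives 0.0474 to 0.54). Without leukemic replicate 2 it was 0.13.

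Lss and Cyp51 encode the enzymes after squalene epoxidase, lanosterol synthase and lanosterol 14α-demethylase. Lss measured 3.14, 5.34 and 4.41 FPKM in leukemic replicates 1 to 3 and 4.30, 3.24, 2.95 and 3.42 in preleukemic replicates 1 to 4. The groups overlapped, since leukemic replicate 1 was below 3 of the 4 preleukemic samples. Its log2 fold change was 0.23 (95% interval -0.20 to 0.66, limma adjusted p = 0.402), and it was 0.088 without leukemic replicate 2 and 0.40 without leukemic replicate 1.

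Cyp51 measured 17.2, 20.9 and 14.7 FPKM in leukemic replicates 1 to 3 and 17.5, 14.6, 11.3 and 11.3 FPKM in preleukemic replicates 1 to 4. Preleukemic replicate 1 was above 2 of the 3 leukemic samples. The log2 fold change was 0.35 (95% interval -0.08 to 0.78, limma adjusted p = 0.216), so neither no change nor a change as large as that of Hmgcs1 lay outside the interval. Without leukemic replicate 2 it was 0.22.

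Srebf2 was the most abundant member and had the smallest fold change. Its levels were 60.8, 68.4 and 67.4 FPKM in leukemic replicates 1 to 3 and 62.0, 59.3, 56.0 and 60.4 in preleukemic replicates 1 to 4. Leukemic replicate 1 lay within the preleukemic range. The log2 fold change was 0.14 (95% interval -0.04 to 0.32, limma adjusted p = 0.244), and with quantile normalization between samples it was 0.07. These values are mRNA levels, while SREBP2 is switched on by cleavage of the protein, which was not measured here.

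Insig1, whose protein retains SCAP and which is a target of SREBP, measured 15.1, 18.6 and 10.0 FPKM in leukemic replicates 1 to 3 and 13.9, 14.1, 7.41 and 10.6 in preleukemic replicates 1 to 4. Its groups overlapped, with leukemic replicate 3 below 3 of the 4 preleukemic samples. The log2 fold change was 0.32 with the largest standard error of the members, 0.27 (95% interval -0.31 to 0.94, limma adjusted p = 0.424). It was 0.13 without leukemic replicate 2, 0.14 without preleukemic replicate 3 and 0.55 without leukemic replicate 3. Its paralog Insig2, named after its values were seen, averaged 9.99 ± 0.704 FPKM (SD, n = 4) in the preleukemic group and 7.80 ± 0.948 (SD, n = 3) in the leukemic group, and its log2 fold change of -0.32 did not pass either (limma adjusted p = 0.0799).

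In order of mean FPKM over the 7 samples the members were Srebf2 (62.1), Sqle (30.4), Hmgcs1 (24.5), Cyp51 (15.3), Insig1 (12.8), Fdft1 (8.42), Lss (3.83) and Idi1 (3.49). Neighbours in this order kept their places in all 7 samples for Srebf2 and Sqle, Hmgcs1 and Cyp51, Cyp51 and Insig1, and Fdft1 and Lss. Sqle was above Hmgcs1 in 6 of 7 samples, Insig1 above Fdft1 in 6 of 7, and Lss above Idi1 in 5 of 7. Differences in level between members were not tested.

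Most members shared a pattern across samples that went beyond the groups. Srebf2 and Fdft1 followed it least relative to their own variation, on the log2(FPKM + 1) scale. Their root mean square difference from the mean profile of the other members was 0.20 and 0.21. That was above their root mean square deviation from their own means, 0.09 and 0.19, while the remaining members showed the reverse. In absolute terms Insig1 differed most from the other members, by 0.25, with a deviation of 0.38 from its own mean. Leukemic replicate 2 was the highest of the 7 samples in all 8 members, against 15.5% of genes tested. Among preleukemic samples, replicate 3 was the lowest in 6 of 8 members (18.1% of genes tested), and replicate 1 was the highest in 5 of 8 (24.9%). The mean deviation of the members from their 7-sample means was 0.46 in leukemic replicate 2, 0.12 and 0.07 in leukemic replicates 1 and 3, and 0.04, -0.11, -0.35 and -0.23 in preleukemic replicates 1 to 4, on the log2(FPKM + 1) scale. Leukemic replicate 2 and preleukemic replicate 1 were also the samples of their groups with the highest red cell marker sums, 1874 and 232.8 FPKM; the part of these cells in the pattern was not tested. The remaining leukemic samples split the members, with replicate 1 lowest of the group in Srebf2, Hmgcs1, Fdft1 and Lss and replicate 3 lowest in Sqle, Idi1, Cyp51 and Insig1.

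**Figure D2:**
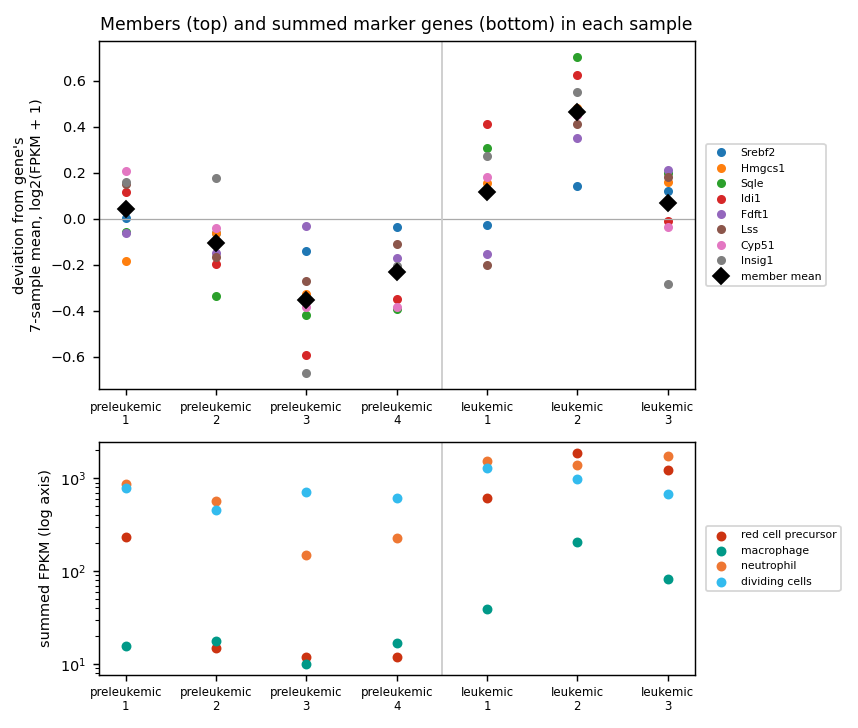
Top, deviation of each member from its own mean over the 7 samples on the log2(FPKM + 1) scale, with the mean of the 8 members as black diamonds. Bottom, summed FPKM of 4 marker lists on a log axis; the member mean is highest in leukemic replicate 2 (0.46), which also has the largest red cell precursor and macrophage sums (1874 and 205.8 FPKM).

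When the samples with the highest red cell marker sum in each group were both left out, an alternative chosen after seeing the data, Sqle was still called (log2 fold change 0.63, limma adjusted p = 0.0212) and Hmgcs1 was not (0.36, 0.11). All 8 members kept a log2 fold change above 0 with every sample left out in turn and under each other alternative that tested them (Idi1, Fdft1 and Lss do not pass a minimum sum of 70 FPKM). Genes of dividing cells were higher in the leukemic means too, with a median log2 fold change of 0.59. Of the 10, 1 was called (Mki67), near the 8.47% of all genes tested that were called higher. The sum of these genes was 1287, 994.1 and 686 FPKM in leukemic replicates 1 to 3 and 457 to 777 FPKM in preleukemic samples. The part of cell division in the differences of the members was not tested.

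Over the listed genes of the route to cholesterol, 5 of 19 tested were called higher (Acat2, Hmgcs1, Mvd, Fdps and Sqle) and 0 lower by limma (0 of 19 lower also at an unadjusted p under 0.05), and 17 of 19 had a log2 fold change above 0. Over all genes tested, 8.47% were called higher, 6.26% were called lower and 47.9% had a log2 fold change above 0. Of the 13 that are no members, 3 were called higher.

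From acetyl-CoA to squalene, 4 of 8 genes were called, with a median log2 fold change of 0.53 and all 8 above 0. Acat2, the cytosolic thiolase that joins acetyl-CoA units, rose from 8.58 ± 1.85 FPKM in the preleukemic group to 16.5 ± 1.19 in the leukemic group, by 0.89 on the log2 scale with a standard error of 0.16 (limma adjusted p = 0.0171; means here and below are given with the SD over 3 leukemic and 4 preleukemic samples). Mvd, which decarboxylates mevalonate diphosphate, rose from 6.32 ± 0.940 to 10.3 ± 1.07 FPKM (log2 fold change 0.63, limma adjusted p = 0.0229). Fdps, which makes farnesyl diphosphate, rose from 23.7 ± 3.84 to 36.7 ± 5.53 FPKM (0.61, limma adjusted p = 0.0354). The calls of Acat2 (adjusted p 0.0531 to 0.0649 by limma) and Mvd (0.0715 to 0.0777) were lost without preleukemic replicate 3 or 4, and that of Fdps (0.0586 to 0.102) without any 1 sample other than leukemic replicate 1 and preleukemic replicate 1. Pmvk, phosphomevalonate kinase, averaged 12.5 ± 2.15 FPKM in the preleukemic group and 17.1 ± 1.03 in the leukemic group and did not pass (limma adjusted p = 0.0704).

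From squalene to cholesterol, Sqle was the 1 gene of 11 called, against 8.47% of all genes tested that were called higher. The median log2 fold change of the 11 genes was 0.23. Lbr, a sterol reductase that also anchors chromatin to the nuclear lamina, was the most abundant of these genes, at 168 ± 13.5 FPKM in the leukemic group and 165 ± 12.5 in the preleukemic group (log2 fold change 0.02, limma adjusted p = 0.887). Msmo1, which encodes the demethylase acting after Cyp51, measured 20.1, 26.1 and 20.3 FPKM in leukemic replicates 1 to 3 and 21.0, 18.7, 16.1 and 15.6 in preleukemic replicates 1 to 4. The groups overlapped, and its log2 fold change of 0.30 did not pass (limma adjusted p = 0.175) and was 0.18 without leukemic replicate 2. Ebp, sterol isomerase, averaged 25.7 ± 0.783 FPKM in leukemic and 23.5 ± 2.33 FPKM in preleukemic samples (limma adjusted p = 0.355).

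**Figure D3:**
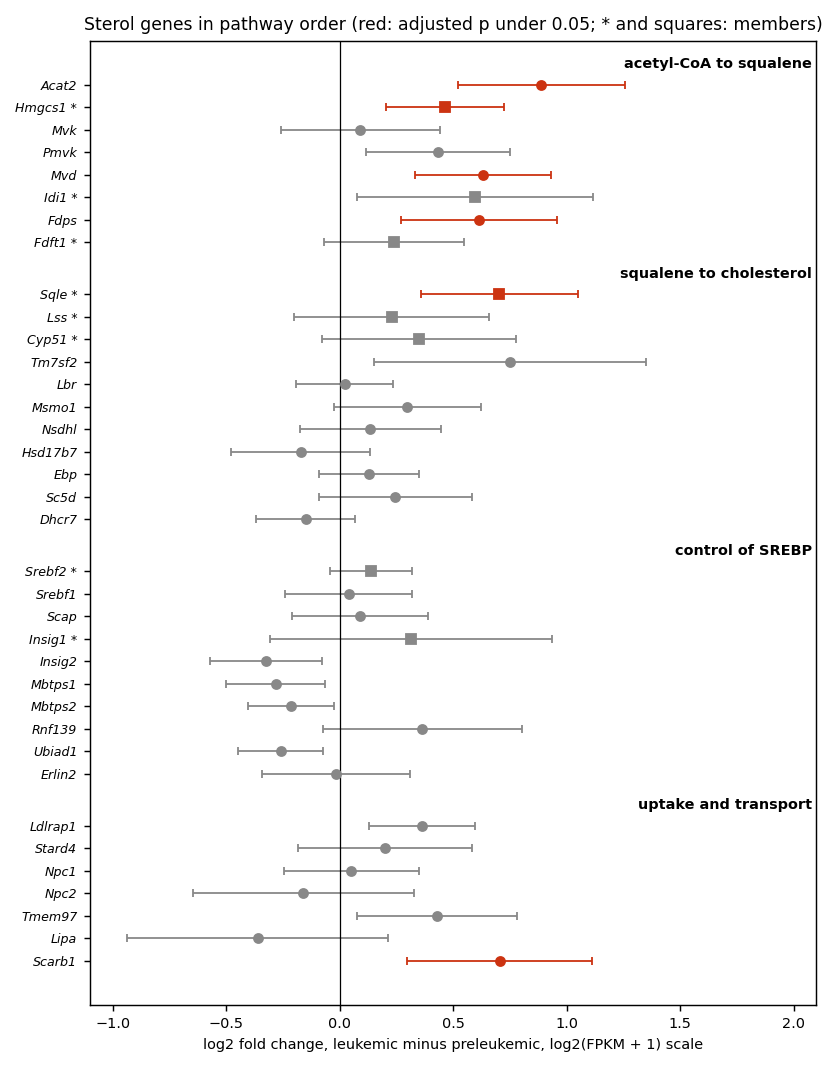
Log2 fold change (leukemic minus preleukemic, log2(FPKM + 1) scale) with its 95% interval for tested genes of sterol synthesis in pathway order, of SREBP control and of sterol uptake and transport. Members are squares with an asterisk and red marks an adjusted p under 0.05; 4 of 8, 1 of 11, 0 of 10 and 1 of 7 genes are red from the top group to the bottom group.

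Of the 10 genes that control SREBP, 0 were called by limma. At an unadjusted p under 0.05, 4 were lower and 0 higher, against 17.5% and 16.5% of all genes tested. The median log2 fold change of the 10 genes was 0.01. Scap, the sterol sensor that carries SREBP2, averaged 96.5 ± 18.9 FPKM in the leukemic group and 89.7 ± 3.48 in the preleukemic group (limma adjusted p = 0.652). Mbtps1, the site-1 protease, averaged 35.5 ± 3.01 FPKM in the leukemic group and 43.4 ± 3.29 in the preleukemic group, which did not pass (log2 fold change -0.28, limma adjusted p = 0.081). Srebf1, the gene of SREBP1, averaged 27.6 ± 1.90 FPKM in leukemic and 26.96 ± 3.74 FPKM in preleukemic samples (limma adjusted p = 0.84).

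In the list for sterol uptake and transport, 1 of 7 genes tested was called higher and 0 lower by limma (0 of 7 lower also at an unadjusted p under 0.05). The share called higher over all genes tested was 8.47%. Scarb1, the HDL receptor, rose from 17.0 ± 3.42 to 28.2 ± 4.88 FPKM (log2 fold change 0.70, limma adjusted p = 0.0378), a call lost without any 1 sample other than leukemic replicate 3 and preleukemic replicate 1 (0.0737 to 0.112) and with no filter on low values (0.0552). Tmem97, which binds NPC1 and is sterol-regulated, averaged 26.2 ± 2.93 FPKM in leukemic and 19.3 ± 3.38 FPKM in preleukemic samples and did not pass (limma adjusted p = 0.0945). The lysosomal genes Npc2 and Lipa had log2 fold changes of -0.16 and -0.36, with adjusted p of 0.61 and 0.326 by limma. Leaving out leukemic replicate 1 moved Lipa to -0.06 and leaving out leukemic replicate 2 moved it to -0.64.

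Of 8 genes for sterol sensing, efflux and storage, 2 were called higher, against 8.47% of all genes tested. Nr1h3, which encodes the oxysterol receptor LXRα, rose from 0.448 ± 0.0888 to 3.06 ± 0.638 FPKM (log2 fold change 1.48, limma adjusted p = 0.0109), and Apoe, an apolipoprotein of lipid efflux, from 8.07 ± 1.33 to 69.6 ± 45.4 FPKM (2.69, limma adjusted p = 0.0183). Both are abundant in macrophages, whose summed markers ran from 39.2 to 205.8 FPKM in leukemic and from 10.0 to 17.95 FPKM in preleukemic samples; their part in these rises was not tested. The call of Apoe was lost without preleukemic replicate 2, 3 or 4 (adjusted p 0.0535 to 0.0635 by limma). Nr1h2, the gene of LXRβ, averaged 45.5 ± 8.13 FPKM in leukemic and 59.98 ± 8.08 FPKM in preleukemic samples (log2 fold change -0.40, limma adjusted p = 0.106).

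Genes of fatty acid synthesis, which answer mainly to SREBP1, went both ways, with 2 of 11 called higher and 2 called lower. Over all genes tested these shares were 8.47% and 6.26%. Acss2, cytosolic acetyl-CoA synthetase, rose from 0.792 ± 0.491 to 4.25 ± 2.76 FPKM (log2 fold change 1.46, limma adjusted p = 0.0386), and the elongase gene Elovl5 from 53.4 ± 3.24 to 85.1 ± 11.4 FPKM (0.65, limma adjusted p = 0.0144). Elovl6, an elongase of saturated chains, fell from 47.1 ± 5.25 to 22.5 ± 5.81 FPKM (-1.05, limma adjusted p = 0.0142). Gpam, the first enzyme of glycerolipid synthesis, fell from 88.4 ± 15.6 to 30.3 ± 24.8 FPKM (-1.78, limma adjusted p = 0.041). Left-out samples ended these calls too, with adjusted p by limma of 0.0575 for Elovl5 without preleukemic replicate 4 and 0.0521 for Elovl6 without replicate 3. For Acss2 it was 0.0535 to 0.111 without any 1 sample other than leukemic replicate 1 and preleukemic replicate 1, and for Gpam 0.0741 to 0.118 without any other than leukemic replicate 2. With no filter on low values the calls of Acss2 (0.052) and Gpam (0.0629) were lost as well. Acly, the ATP citrate lyase that supplies acetyl-CoA to both routes, averaged 77.2 ± 1.78 FPKM in leukemic and 80.8 ± 4.98 FPKM in preleukemic samples (limma adjusted p = 0.576).

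The chromosomes that carry these genes did not move alike. Over all genes tested of a chromosome, the median log2 fold change was 0.35 on chromosome 17, where Acat2 lies, and 0.22 on chromosome 9, which holds Elovl5, and the share called higher was 33.6% and 13.1%. On chromosome 15, which holds Sqle and Srebf2, the median was 0.02 and the share called higher 9.07%, and on chromosome 13, which holds Hmgcs1 and Idi1, they were -0.07 and 5.24%. On chromosomes 5, 10 and 14, which hold the other members, the medians were between -0.05 and -0.03. The paper reports that leukemias of these mice gain whole chromosomes, in combinations that differ between leukemias. The chromosomes with the highest medians above are those it found gained most often. The chromosomes of Sqle, Srebf2 and Fdft1 were gained in only some of its leukemias. Which gains the samples compared here carry is not given in the sources used here. A median over the group does not speak for each leukemic sample. The part of the chromosome in the change of a single gene was not tested.

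**Figure D4:**
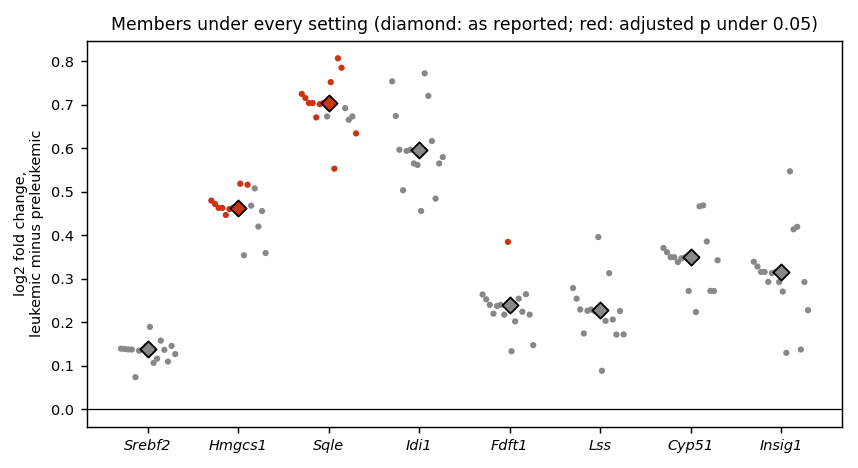
Log2 fold change of each member as reported (diamonds) and under each alternative (small points), with red for an adjusted p under 0.05. Every point lies above 0, and red points occur for Sqle, for Hmgcs1 and, without leukemic replicate 1, for Fdft1 (0.38).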

How the data were processed

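The authors deposited 1 table of FPKM values for 24341 genes in 7 samples, with no value below 0.01 and positions on mm10. The submitters' processing notes name STAR 2.5.0b, bedtools 2.17.0, Cufflinks 2.2.1 and Bowtie without their roles; the annotation is not given in the sources used here. The study's methods used a count model, for which FPKM are not suited, so FPKM were compared on the log2(FPKM + 1) scale with limma 3.58.1 in R 4.3.3 (intensity trend, no covariate, Benjamini-Hochberg over 10541 genes with a sum of at least 10 FPKM), calling genes at an adjusted p under 0.05. Adding 1 understates changes of low genes. With quantile normalization, 754 genes were higher and 907 lower in place of 893 and 660. The fit was also run on simulated data in which samples varied independently, and no result here rests on that run. Samples were grouped by their titles, and columns were matched to samples by the number in their descriptions. No pair of samples shared more than 1 equal value above the lowest value.

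Depth was read from genes with 1 transcript of over 1500 bases in GENCODE M21, whose values under 0.3 FPKM step in whole fragments: 69.2% to 73.1% of low values fell within 0.05 of a whole number at the depths given. Table starts count from 0 (51.3% equal the RefSeq start after adding 1) and are printed from 1. The members and gene lists were chosen with earlier results of these data known. Named are the 8 members, up to 3 other genes per pathway list with the highest mean FPKM, every other gene called, and the 5 genes nearest to the mean profile of the members. Some genes of the pathway lists are not reported here and were left out of the lists and their counts, though not of the fit. Ahsp, Ighd and Ly6g of the marker lists were not analysed here. Markers of mature B, T and NK and plasma cells were tested as well, with 0 of 4, 0 of 6 and 1 of 4 genes called higher and 0 lower by limma (at an unadjusted p under 0.05, 0, 2 and 1 higher and 0, 1 and 0 lower). Figures were drawn with matplotlib 3.10.9 in Python 3.11.15.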

Additional observations from a re-analysis of the deposited data

Results flagged for a closer look

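Among the 43 sets of 4 preleukemic values examined (named genes and marker sums), 1 held a sample far from the other 3 by Dixon's criterion, which chance alone meets in about 1 of 20 sets. The summed red cell precursor markers had 232.8 FPKM in preleukemic replicate 1 and 11.9 to 14.8 FPKM in the others, and no member had such a sample.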

How the results depend on the processing

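With the replicate number as a block, in which preleukemic replicate 4 adds nothing to the difference, 0 members, 0 of the 19 sterol synthesis genes and 0 of all genes were called by limma (at an unadjusted p under 0.05, 2429 genes in either direction, and 3 of 8 members and 12.4% of all genes higher). Same-numbered samples did not deviate together (correlations 0.03, 0.05 and -0.09), and of the leukemic samples only replicate 2 correlated best with its own number, so the numbers do not pair the samples.

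With each sample left out in turn, the members called higher ranged from 0 to 3 and the sterol synthesis genes from 0 to 6. The 0 counts came without preleukemic replicates 2, 3 or 4 for the members (2 of 8 each at an unadjusted p under 0.05 and higher, against 14.4%, 14.0% and 13.1% of all genes) and without replicates 3 or 4 for the sterol synthesis genes, of which 2 were called without replicate 2. The 1553 genes called in all became 932, 443, 271 and 149 without preleukemic replicates 1 to 4, and 951 with a minimum sum of 70 FPKM. Leaving out samples turned the sign of genes that were not called, with log2 fold changes of -0.043 to 0.064 for Lbr, -0.058 to 0.22 for Scap, -0.038 to 0.11 for Srebf1, -0.41 to 0.032 for Npc2 and -0.15 to 0.14 for Fnta.

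Without leukemic replicate 2 and preleukemic replicate 1, an alternative chosen after seeing the data, 1 member and 3 sterol synthesis genes were called higher. Of all 10541 genes tested, 641 were called higher there. Lbr was -0.038, Scap -0.081, Npc2 -0.49 and Srebf1 0.16. In that alternative the calls of Mvd, Scarb1, Apoe and Fntb were lost too. With 0.1 in place of 1 added to FPKM, the log2 fold changes of Nr1h3 and Acss2 were 2.52 and 2.24. With quantile normalization Lbr was -0.076 and Fnta -0.00074. The causes were not tested. Of 553 values recomputed for 35 genes under 16 alternatives, 475 kept direction and call, 65 lost the call, 1 gained it and 12 changed sign. Depth limits Idi1 and Lss most among the members whose fragments could be counted.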

Other observations

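The genes whose profile over the 7 samples lay nearest to the mean profile of the 8 members, among 10533 other genes tested, were St3gal2 (a sialyltransferase gene), Synj1 (a phosphoinositide phosphatase gene), Msmo1, Mrps36 and Eif5 (a translation initiation factor gene). The measure was the root mean square difference of deviations on the log2(FPKM + 1) scale, and ran from 0.06 to 0.08 for these 5. Msmo1, which takes part in sterol synthesis, was the third nearest. Of the 61 other genes of the pathway lists, 3 were among the 100 nearest (Msmo1, Lpcat3 and Pdss1) and 14 among the 1000 nearest. These are descriptions of likeness over 7 samples and were not tested. The acyltransferase gene Lpcat3 averaged 21.5 ± 2.26 FPKM (SD, n = 4) in the preleukemic group and 27.98 ± 3.96 (SD, n = 3) in the leukemic group and did not pass (limma adjusted p = 0.0883).

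Downstream of farnesyl diphosphate, 1 of 14 genes of the isoprenoid branches was called higher, against 8.47% of all genes tested. The median log2 fold change of the 14 genes was -0.06. Fntb, the β subunit of protein farnesyltransferase, rose from a preleukemic mean of 6.51 ± 0.607 FPKM to 9.21 ± 0.263 FPKM (log2 fold change 0.45, limma adjusted p = 0.0275, and 0.0523 to 0.0826 without any 1 sample other than leukemic replicate 1), while the shared α subunit gene Fnta averaged 36.5 ± 8.23 FPKM in leukemic and 35.4 ± 2.38 FPKM in preleukemic samples (limma adjusted p = 0.92). Rabggtb, a gene for a subunit of the enzyme that prenylates Rab proteins, and Zmpste24, a protease gene of prenylated proteins, had log2 fold changes of 0.20 and -0.09 and did not pass (limma adjusted p = 0.197 and 0.49). Whether Fntb and Fnta differ in their change was not tested.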
